A study of Mus musculus with 6 samples.

Results

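Group 2 innate lymphoid cells (ILC2) of the mouse kidney were compared between control mice and mice with acute kidney injury after rhabdomyolysis, the breakdown of skeletal muscle. The cells were picked from single-cell RNA counts by detection of genes. A barcode needed 500 or more UMIs of genes and 200 or more genes, with mitochondrial UMIs up to 15% and Malat1, a nuclear RNA, at 0.3% or more. At least 2 of Gata3, Il1rl1, Il17rb, Il5 and Il13 had to be detected. No UMI of the T cell genes Cd3d, Cd3e and Cd3g, of the B cell gene Cd79a or of the NK cell gene Ncr1 was allowed. Of 12596 barcodes that passed the quality filter, 111 met this rule, 86 in the control libraries and 25 in the rhabdomyolysis libraries. A UMI, or unique molecular identifier, marks 1 captured RNA molecule.

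ILC2 are tissue-resident lymphocytes without a rearranged antigen receptor. The transcription factor Gata3 directs their development, and they answer to the alarmins IL-33 and IL-25, sensed through Il1rl1 and Il17rb, by releasing type 2 cytokines, amphiregulin and other mediators. They also carry receptors for neuropeptides, lipids and hormones, and in the kidney they lie mainly around vessels.

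Live leukocytes carrying CD45 were sorted from enzymatically digested kidneys of 8 week old C57BL/6J mice and profiled by droplet-based 3' single-cell RNA sequencing. Control mice and mice with acute kidney injury from rhabdomyolysis (RM-AKI) gave 3 libraries each, and no genetic change or further agent is given for either group. The labels used here do not say how rhabdomyolysis was induced, how long after it the kidneys were taken, or how many animals stand behind a library. The p-values therefore refer to variation among libraries, and this could be technical. The libraries held 10816727 to 22656666 gene UMIs, and 1013 to 3471 barcodes of each passed the filter. Pairs of libraries shared 0 to 3 passing barcodes, and no selected cell was shared.

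The label was checked on ILC2 genes that the rule did not use. Il7r, the interleukin 7 receptor chain, was detected in 90.9% of the 77 cells with 2 rule markers and in 91.2% of the 34 cells with 3 or more. Just outside the threshold, 14.6% of the 419 barcodes with 1 marker held Il7r. The groups differed here: Il7r was in 12.3% of 374 such control barcodes and in 33.3% of 45 such rhabdomyolysis barcodes, of which 31.1% held Calca. The myeloid gene Lyz2 was in 79.5% of the 419, against 14.3% of the cells with 2 markers. Other ILC2 genes were less even. Rora was in 66.2% of cells with 2 markers, 47.1% with 3 or more and 13.8% of barcodes with 1. Icos was in 46.8%, 73.5% and 6.44%, in the same order. T cells held Il7r too, in 26.4% of control and 75.8% of rhabdomyolysis barcodes. Among C1q macrophages of the control libraries, which should lack Il7r, 1.26% of barcodes had a UMI of it at median depths of 3643 to 4177.5 UMIs, where the selected cells had 3948 to 4487. In all, 15 of 16 further ILC2 markers were detected over both groups together. In rhabdomyolysis cells Areg and Klrg1 had 0 UMIs, and Il9r, Csf2 and Cxcr6 had 1 each. Without Calca the summed level of the further markers was 23.3 to 26.4 UMIs per 10000 in control and 13.8 to 22 in rhabdomyolysis libraries. It overlapped between groups, at 23.9 to 27.3 and 18.6 to 25.1, without barcodes that also held myeloid RNA.

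Defining genes of other cell types were mostly absent. The T cell receptor gene Trac had 0 UMIs in all 111 cells, where 87.2% of control T cells held it, and Cd8a, Cd5, Cd28, Foxp3 and Ctla4 were also at 0. Of 11 mast cell and basophil markers only Cpa3 was seen, at 0.785 to 1.12 UMIs per 10000 in the control libraries and 0 in the others. The T cell list as a whole stood at 4.28 to 6.67 in the control and 0.625 to 2.64 in the rhabdomyolysis libraries, in the control libraries mostly Trbc2. The regulatory T cell list, which also holds Il2ra and Tnfrsf18, stood at 2.82 to 3.72 and 4.47 to 14.4, without overlap. The gamma delta T cell list reached at most 2.52. Of 12 NK cell and ILC1 markers 8 were detected, with a sum of at most 1.68. The rule itself fixed Ncr1 of this list at 0, and likewise Cd3d, Cd3e and Cd3g of the T cell list. The antibody tag for CD3 gave 2.06 to 6.05 counts per 10000 gene UMIs in the selected cells and 17.4 to 41.9 in T cells.

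Some barcodes also carried myeloid RNA. With 50 UMIs or more of macrophage, monocyte, neutrophil and dendritic cell markers, 2 cells of each control library and 1, 2 and 0 cells of rhabdomyolysis libraries 1, 2 and 3 were mixed, and the highest held 1781 such UMIs. The conventional dendritic cell markers reached 360 UMIs per 10000 in rhabdomyolysis library 2 and fell to at most 1.24 in the rhabdomyolysis libraries once mixed barcodes were left out. In rhabdomyolysis library 2 classical monocyte and neutrophil markers still summed to 10.3 and 10.8. Values without mixed barcodes, a setting chosen after seeing the data, are given beside the genes and lists that they change.

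ILC2 made up a smaller share of the CD45+ barcodes after rhabdomyolysis. The control libraries held 39 of 3471, 24 of 2828 and 23 of 2246 barcodes, or 1.12%, 0.849% and 1.02%. The rhabdomyolysis libraries held 8 of 1013, 8 of 1532 and 9 of 1506, or 0.790%, 0.522% and 0.598%. All control shares lay above all rhabdomyolysis shares, with means of 0.999% ± 0.139 (SD, n = 3) and 0.637% ± 0.138 (SD, n = 3), at the smallest p that a two-sided exact permutation test of 3 against 3 allows, 0.1. Tested on numbers of barcodes with edgeR's quasi-likelihood model, it had a log2 change of -0.68 ± 0.24 (SE, adjusted p = 0.0378 over 7 classes). Some other classes moved by more: T cells fell by 1.65 and B cells by 1.04 on the log2 scale, and Lyz2-positive myeloid barcodes without C1q rose by 2.09.

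**Figure D1:**
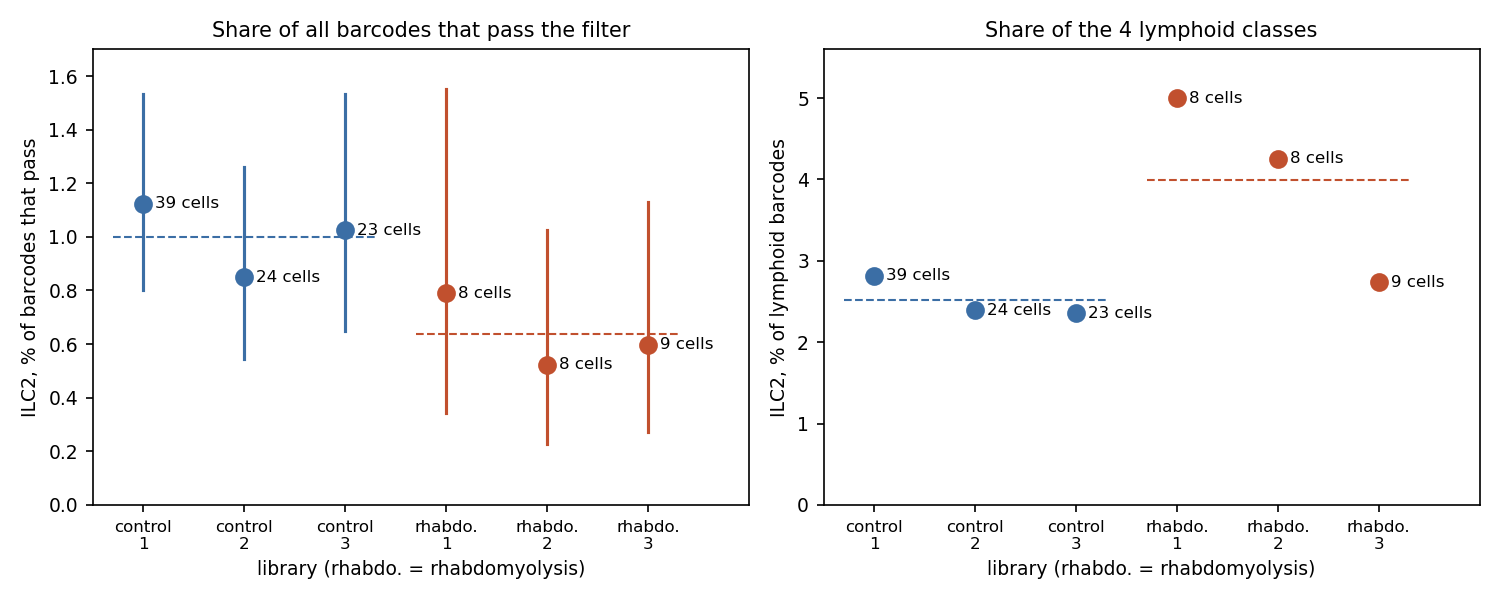
ILC2 in each library as a percentage of all barcodes that passed the filter (left, bars are exact 95% binomial intervals) and of the ILC2, T, B and NK classes together (right), with group means as dashed lines. The 3 control points lie above the 3 rhabdomyolysis points on the left, and on the right rhabdomyolysis libraries 1 and 2 lie above all control points.

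The share depended on its denominator. Against the 4 lymphoid classes alone, ILC2 were 2.82%, 2.39% and 2.36% in the control and 5%, 4.26% and 2.74% in the rhabdomyolysis libraries, where rhabdomyolysis library 3 fell inside the control range. That log2 change was 0.59 (adjusted p = 0.184), in the opposite direction. The call on all barcodes was lost without control library 1 (-0.57, adjusted p = 0.133), control library 3 (-0.66, 0.0851), rhabdomyolysis library 2 (-0.56, 0.273) or rhabdomyolysis library 3 (-0.66, 0.190). For cells with 3 or more markers the change was 0.22 (adjusted p = 0.955). Fewer ILC2 and more of other leukocytes cannot be told apart from a share.

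Inside the cells, 111 of 926 genes tested changed, 64 upward and 47 downward, so 12% of tested genes were called, 6.91% as higher and 5.08% as lower. These shares are the background for the counts of called genes in every gene list below, and no list was tested against them. The test was edgeR's quasi-likelihood test applied to each library's summed UMIs, called at a Benjamini-Hochberg adjusted p under 0.05. The median log2 change of all tested genes was 0.02. With library totals in place of trimmed mean scaling the median was -0.18 and the split 45 upward and 71 downward. Without mixed barcodes 126 genes were called, 70 upward and 56 downward, and 97 of them were among the 111. The number called depended on the libraries: it was 59, 64 and 71 without control library 1, 2 or 3, and 197 without rhabdomyolysis library 3. Summed counts were 89161 to 166391 UMIs in the control and 31977 to 49236 in the rhabdomyolysis libraries, so low genes rested on fewer counts in the rhabdomyolysis group. In the rhabdomyolysis cells mitochondrial UMIs were lower, 1.54% ± 0.281 against 2.49% ± 0.348 (SD, n = 3 each), and so was Malat1, 1.58% against 2.62%, neither with overlap (exact permutation p = 0.1 for each). Both shares were also limits of the cell filter, so these values are a description. Malat1 and mt-Nd2 count among the 47 lower genes. The part of these shares in the other gene changes was not tested.

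The secreted product that marked the rhabdomyolysis cells was Calca, which encodes calcitonin and, by alternative splicing, the calcitonin gene-related peptide, a neuropeptide. The counts per gene do not separate these transcripts. In the control libraries Calca had 0, 0.186 and 0 UMIs per 10000, and in the rhabdomyolysis libraries 433, 363 and 163. There were 2 UMIs in 1 of 86 control cells and 3884 UMIs in 25 of 25 rhabdomyolysis cells, with 6 to 449 per cell and a median of 119. Every rhabdomyolysis cell thus held more Calca than any control cell. The ratio of the pooled levels was 5648, with a 95% counting interval of 1563 to 46657, and the edgeR log2 change was 12.30 ± 0.74 (SE, adjusted p = 2.76e-05). With each cell thinned to 1000 UMIs, 1 of 85 control and 25 of 25 rhabdomyolysis cells still held Calca. For comparison, 3 of 2028 C1q macrophage barcodes of the rhabdomyolysis libraries held it, at median depths of 5347.5 to 8618.5 UMIs against 3246 to 4853 in the ILC2.

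**Figure D2:**
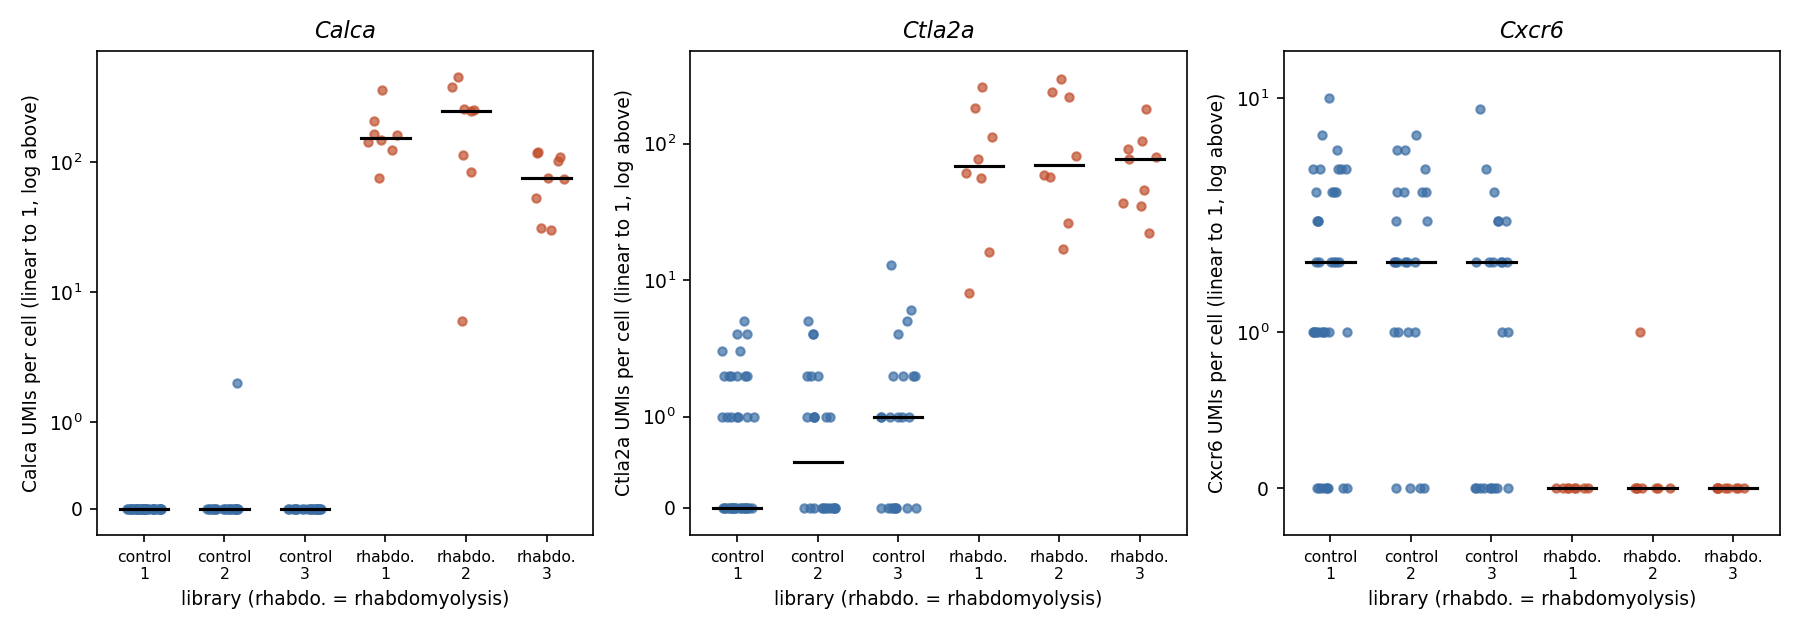
UMIs per cell of Calca, Ctla2a and Cxcr6 in the 111 ILC2 by library, on an axis that is linear up to 1 UMI and logarithmic above, with the library median as a bar. Calca and Ctla2a are high in the rhabdomyolysis libraries and Cxcr6 is detected in 1 of 25 cells there, against 65 of 86 control cells.

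Calca was not confined to the selected cells. Of the 50 barcodes with 10 or more Calca UMIs, all in rhabdomyolysis libraries, 24 were selected, with 30 to 449 UMIs. A further 14 had 1 rule marker and no excluded gene, with 33 to 315 UMIs, and 4 had 2 or more markers together with an excluded gene. Another 6 had no marker and no excluded gene, with 10 to 614 UMIs and thus the highest value of all, and 2 had under 2 markers with an excluded gene. T cells of the rhabdomyolysis libraries held 889 Calca UMIs in 7 of 314 barcodes, and their own change was also called (log2 change 10.00, adjusted p = 4.12e-05). Most of these UMIs, 552, 160 and 147, were in T cell barcodes that also held 2 rule markers each. The difference of the change from that in T cells, 3.22 ± 2.08, did not pass (adjusted p = 0.589), and in NK cells Calca had 0 and 1 UMIs and could not be compared.

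Ctla2a and its neighbour Ctla2b, inhibitors of cysteine proteases that resemble a cathepsin propeptide, also rose. Ctla2a stood at 2.28, 2.33 and 4.71 UMIs per 10000 in the control libraries and at 241, 203 and 154 in the rhabdomyolysis libraries. The groups lay far apart, and the log2 change was 6.19 ± 0.33 (SE, adjusted p = 2.32e-05). Single rhabdomyolysis cells held 8 to 299 UMIs, where the highest control cell had 13. Ctla2b stood at 0.0601, 0.372 and 0.224 against 11.9, 4.67 and 5.27 (log2 change 5.20 ± 0.59). The genes are near-identical copies, so how their reads were divided is uncertain. Both were expressed by T and NK cells as well, but the change in ILC2 was larger than in NK cells by 6.12 ± 0.35 and than in T cells by 4.38 ± 0.25 for Ctla2a (adjusted p = 5.97e-10 and 1.46e-10).

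The promoters of these genes are shown because Calca and Ctla2a had the most UMIs among the 12 largest rises and Ctla2b is the copy of Ctla2a, as RefSeq windows of GRCm38.p6 from 250 bases before to 50 after the annotated start, 5′ to 3′ on the gene's strand. Capitals mark TGACG, the core of the cAMP response element, searched on both strands.
Calca, chr7:114636308-114636607, minus strand: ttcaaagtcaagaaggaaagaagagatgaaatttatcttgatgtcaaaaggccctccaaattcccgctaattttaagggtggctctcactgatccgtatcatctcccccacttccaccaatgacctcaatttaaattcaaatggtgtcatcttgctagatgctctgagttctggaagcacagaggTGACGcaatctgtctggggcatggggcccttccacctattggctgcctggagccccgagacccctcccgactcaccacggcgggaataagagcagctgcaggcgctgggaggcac
Ctla2a, chr13:60936576-60936875, minus strand: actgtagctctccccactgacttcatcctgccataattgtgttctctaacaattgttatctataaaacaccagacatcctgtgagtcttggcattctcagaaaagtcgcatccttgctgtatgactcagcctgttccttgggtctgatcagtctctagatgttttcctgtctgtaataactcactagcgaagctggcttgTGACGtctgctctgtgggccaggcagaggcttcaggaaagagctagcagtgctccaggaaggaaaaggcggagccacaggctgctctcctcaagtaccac
Ctla2b, chr13:60897398-60897697, minus strand: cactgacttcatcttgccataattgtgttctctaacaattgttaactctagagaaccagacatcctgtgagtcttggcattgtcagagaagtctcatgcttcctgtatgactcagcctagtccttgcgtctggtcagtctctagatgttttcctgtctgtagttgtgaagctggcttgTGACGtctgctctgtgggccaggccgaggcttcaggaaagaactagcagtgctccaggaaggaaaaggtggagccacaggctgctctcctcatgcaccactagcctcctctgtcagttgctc
The motif began at -65, -50 and -72 from the start, and for Ctla2a this is 1 of 2 windows in the table. The Ctla2a and Ctla2b windows were identical in 79.8% of 322 aligned columns, and Calca and Ctla2a in 48.7% of 318. TGACG was in 20.8% of all 32851 windows, in 42.1% of the 732 tested genes with a window, in 21 of 51 higher genes (41.2%) and in 11 of 34 lower genes (32.4%), so the higher genes held it about as often as tested genes in general.

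Other secreted effectors were sparse. Il5 had 1 UMI in each group and Il13 had 4 UMIs in control and 0 in rhabdomyolysis cells, both as rule genes. Metrnl, a secreted meteorin-like cytokine, rose from 0.12, 0.651 and 0.449 to 2.19, 3.05 and 4.82 UMIs per 10000 (log2 change 3.33 ± 0.49, adjusted p = 0.00308). Fgl2, a fibrinogen-like immunoregulatory protein, rose from 0.601, 1.40 and 2.02 to 11.3, 5.28 and 8.71 (2.85 ± 0.42, 0.00308). For both genes all rhabdomyolysis libraries lay above all control libraries. Of the 3 tested secreted effectors, Calca was the 1 called. Ltb, a lymphotoxin chain, had 15, 18.8 and 17.7 against 1.56, 1.02 and 12.8 and was not called (-1.62 ± 0.68, adjusted p = 0.167), with rhabdomyolysis library 3 nearest to the controls. Mif, a macrophage-regulating cytokine, was not called either (0.17, 0.880).

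Some effectors were too low for the count filter and are given as counts out of 363043 control and 124821 rhabdomyolysis UMIs, chosen after their values were seen. Csf2, the cytokine GM-CSF, had 60, 13 and 15 UMIs in the control libraries and 0, 0 and 1 in the rhabdomyolysis libraries, in 27 of 86 and 1 of 25 cells. A single control cell held 41 of these. Areg, encoding amphiregulin, had 22 UMIs against 0, and the chemokine gene Ccl5 had 41 against 0. Ccl3 and Ccl4, with 65 and 109 UMIs in rhabdomyolysis library 1, had 0 in that group without mixed barcodes. In a fit without the filter, which called 306 of 10911 genes or 2.8%, 26 of 101 listed genes with 20 or more UMIs were called, 15 higher and 11 lower, and 13 of the 26 were also called without mixed barcodes. Ccl3 passed this edgeR fit (adjusted p = 9.04e-28) with all its UMIs in rhabdomyolysis library 1. A call there thus does not require the libraries of a group to agree.

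Of the alarmin and cytokine receptors, 3 were tested beside the rule genes and 1 was called as higher. Ifngr1, a chain of the interferon gamma receptor, had 1.02, 0.837 and 0.785 UMIs per 10000 in the control and 9.38, 3.66 and 10.5 in the rhabdomyolysis libraries. It was higher in all 3 rhabdomyolysis libraries (log2 change 3.21 ± 0.39, adjusted p = 0.00124), and by more than in NK cells (difference 2.96 ± 0.49, adjusted p = 0.00186) and T cells (2.29 ± 0.38, 0.00140). Il7r had 6.85, 9.86 and 8.64 against 9.69, 3.66 and 6.19, with overlap (-0.26 ± 0.33, adjusted p = 0.710). In T cells Il7r rose by 2.21, and the difference from ILC2 was -2.52 ± 0.31 (adjusted p = 7.55e-05). Il2rg, the common gamma chain, was not called (-0.28, 0.676).

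The rule's own markers are a description only. Gata3 averaged 6.44 ± 0.453 UMIs per 10000 in the control and 5.01 ± 1.02 in the rhabdomyolysis libraries (SD, n = 3). Il1rl1 averaged 3.66 ± 0.0664 and 4.72 ± 2.06, and Il17rb 1.53 ± 0.724 and 1.52 ± 0.680. Of the rule genes, 45 control and 10 rhabdomyolysis cells held Gata3 and Il1rl1 alone, and a further 19 and 11 held these 2 and Il17rb. In cells selected without the gene itself, Gata3 (log2 change 0.10 ± 0.51, adjusted p = 0.959) and Il1rl1 (0.68 ± 0.42, 0.354) were not called, and the other 3 were too low to test.

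Receptors for neuropeptides, lipids and hormones included 5 tested genes with a median log2 change of -1.62, and 1 was called as lower. Ramp1, which joins Calcrl to form the receptor for calcitonin gene-related peptide, had 4.93, 3.44 and 2.02 UMIs per 10000 in the control and 0.625, 0.609 and 1.15 in the rhabdomyolysis libraries. All controls lay above all rhabdomyolysis libraries (-2.01 ± 0.52, adjusted p = 0.0387), and the call did not hold without rhabdomyolysis library 1 or 2. Ramp3, the partner that turns Calcrl into an adrenomedullin receptor, was under the filter with 2 control and 51 rhabdomyolysis UMIs, 45 of them outside mixed barcodes. Calcrl itself had 2 and 0 UMIs. Cysltr1, a leukotriene receptor, had 2.46, 3.07 and 3.59 against 0, 1.22 and 0 and was not called (-2.45 ± 0.71, adjusted p = 0.0559), but was without mixed barcodes (-4.54, 0.00391). Nr3c1, the glucocorticoid receptor, was not called (0.38 ± 0.27, 0.495).

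Of the costimulatory and inhibitory receptors 2 of 4 tested genes rose and none fell, with a median of 1.73, where 6.91% of all tested genes rose. Tnfrsf9, a costimulatory receptor of activated lymphocytes, had 0 UMIs in the control libraries and 3.75, 2.84 and 3.21 per 10000 in the rhabdomyolysis libraries. That is 0 against 40 UMIs, at least 38.8-fold higher with a floor of 3 UMIs over the control group (adjusted p = 0.000673). Tnfrsf18, encoding the receptor GITR, rose from 1.92, 2.42 and 1.91 to 12.8, 3.45 and 8.03 (log2 change 2.04 ± 0.41, adjusted p = 0.0134), a call lost without control library 1 or 3. Icos had 2.64, 2.14 and 2.36 against 3.44, 3.05 and 11, with all rhabdomyolysis libraries higher, but was not called (1.41 ± 0.43, 0.0664), and was without mixed barcodes (1.48, 0.0303). Cd69 was not called (0.29, 0.765). Under the filter, the inhibitory receptor gene Pdcd1 had 1 control and 28 rhabdomyolysis UMIs, while Thy1 had 44 and 0 and Klrg1 23 and 0. Lilr4b, an inhibitory immunoglobulin-like receptor with a close paralog, had 1 and 28 UMIs, a ratio of 81.4 with a counting interval of 13.5 to 3330, and was too low to test without mixed barcodes.

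Genes of residency and homing changed in both directions, 2 up and 2 down of 7 tested, where 6.91% of all tested genes rose and 5.08% fell. Cxcr6, a chemokine receptor of tissue lymphocytes, had 5.71, 5.77 and 4.60 UMIs per 10000 in the control libraries and 0, 0.203 and 0 in the rhabdomyolysis libraries. It was detected in 65 of 86 control cells and 1 of 25 rhabdomyolysis cells, and after thinning in 32 of 85 and 0 of 25. The ratio was 0.0147 with a counting interval of 0.00037 to 0.0828, and the edgeR log2 change was -5.69 ± 0.60 (adjusted p = 0.000736). Cxcr6 also fell in NK cells by 5.80 and in T cells by 2.39 on the log2 scale, and the difference from T cells passed (-3.46 ± 0.87, adjusted p = 0.0458) while that from NK cells did not (-1.19 ± 1.97, 0.862). Ccr2, the receptor for monocyte chemoattractants, had 86 control UMIs and 0 in the rhabdomyolysis cells, at least 9.86-fold lower. It was too low to test without mixed barcodes.

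Lztfl1, a regulator of ciliary protein transport, fell beside Cxcr6. It had 11.5, 13 and 9.87 UMIs per 10000 in the control libraries and 0, 0 and 0.917 in the rhabdomyolysis libraries (log2 change -4.96 ± 0.60, adjusted p = 0.00115), in 78 of 86 and 4 of 25 cells. On the RefSeq map of GRCm38.p6 both genes lie on chromosome 9, Lztfl1 at 123694404 to 123717625 and Cxcr6 at 123806477 to 123811754, 88852 bases apart, a link noticed after the values were seen. Ccr9, which lies between them, had 44, 21 and 0 UMIs against 0, 0 and 0, so control library 3 had none. Ccr2, further along the same chromosome at 124101918 to 124109140, also fell. Of 9 protein-coding genes from Lztfl1 to Ccr2, 6 had a UMI, and of these only Ccr1 had more UMIs in rhabdomyolysis cells, 0 against 15. These were 3, 12 and 0 in rhabdomyolysis libraries 1, 2 and 3, and the mixed barcodes of that group were in libraries 1 and 2.

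Emb, or embigin, an adhesion protein, rose evenly, from 7.69, 7.35 and 7.51 to 31.3, 19.7 and 27.5 UMIs per 10000 (log2 change 1.94 ± 0.21, adjusted p = 0.000906). Rgs1, a brake on chemokine receptor signalling, had 3.61, 3.72 and 11.2 against 33.1, 21.3 and 17.0 (2.12 ± 0.48, 0.0224). Its call was lost without mixed barcodes (1.35, 0.103) and without control library 1 or 2.

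**Figure D3:**
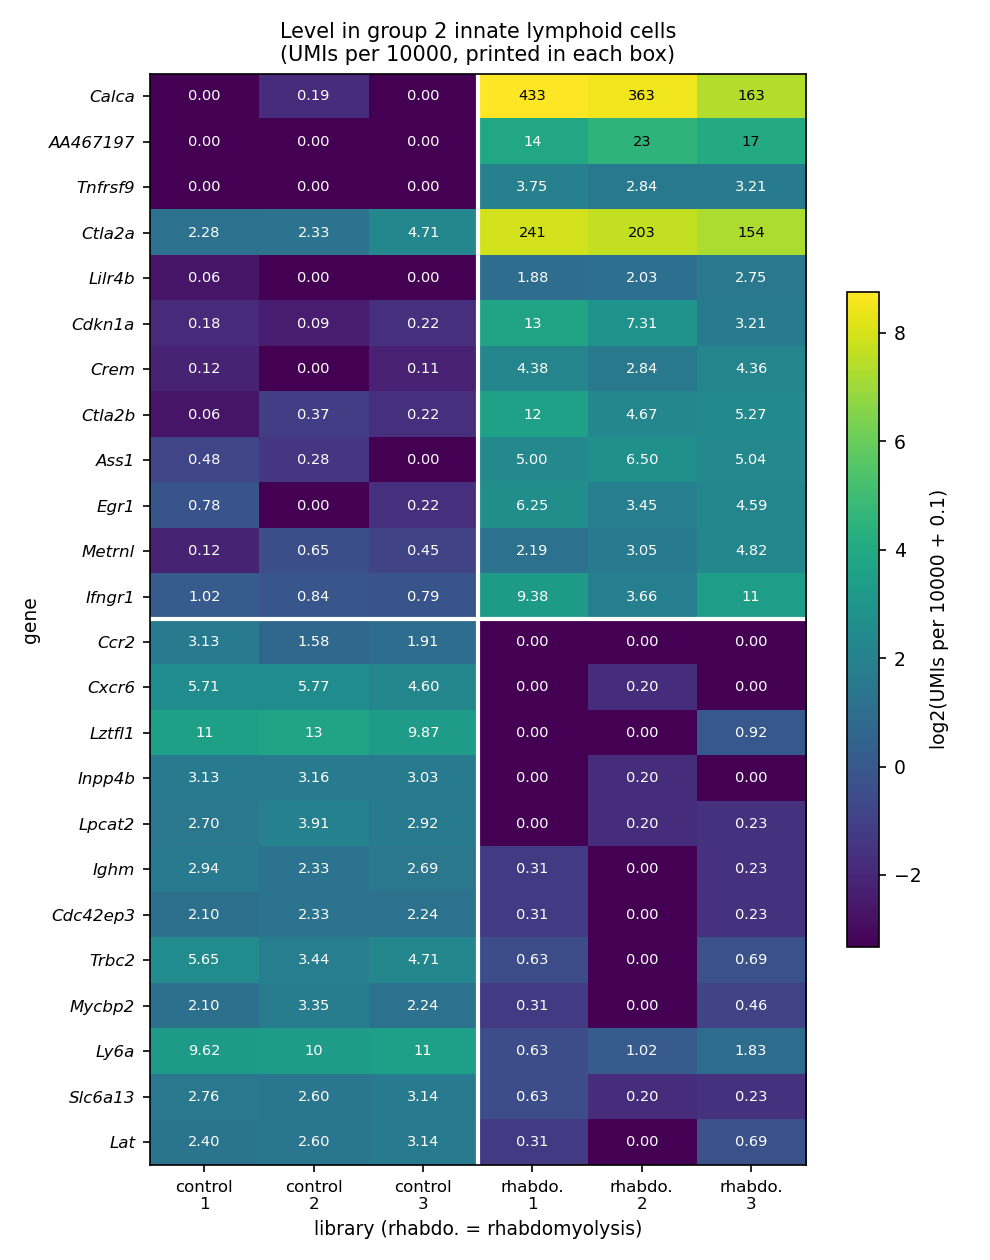
Level of the 12 genes with the largest rise and the 12 with the largest fall in ILC2, in UMIs per 10000 summed over the cells of each library, printed in each box and coloured as log2(value + 0.1). Every row has its 3 rhabdomyolysis values all above or all below its 3 control values, which the choice of rows required.

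Among ILC2 and lymphoid transcription factors 1 of 8 tested genes rose and 2 fell, with a median of -0.17, and 2 rose and 2 fell without mixed barcodes, where Klf2 was also called (1.98, adjusted p = 0.0232). Lmo4, a LIM-domain cofactor, rose from 3.37, 3.63 and 3.81 to 11.9, 12.2 and 9.17 (log2 change 1.78 ± 0.23, adjusted p = 0.00155), though it was not called in cells with 3 or more markers. Ikzf2, or Helios, fell from 1.92, 1.95 and 2.02 to 0, 0.203 and 0.459 (-2.81 ± 0.52, 0.00868). Bcl11b, needed for ILC2 identity, had 2.22, 2.33 and 3.14 against 0, 0.203 and 1.15 (-2.21 ± 0.59, 0.0427), and this call held without rhabdomyolysis library 3 but was lost without any other single library. Rora, a defining factor of ILC2, had 2.34, 1.58 and 1.79 against 3.44, 4.67 and 2.29 and was not called (1.0 ± 0.35, 0.109). Id2, the repressor shared by innate lymphoid cells, had 12.2, 18.2 and 10.5 against 5.32, 6.30 and 11.9 (-0.66 ± 0.32, 0.237). Klf2 (1.71, 0.0563), Klf6 (-0.06, 0.978) and Ets1 (-0.29, 0.735) were not called. Crem, a transcription factor of the cAMP response, rose outside this list from 0.12, 0 and 0.112 to 4.38, 2.84 and 4.36, or 3 against 47 UMIs, a ratio of 45.6 with a counting interval of 14.7 to 229 (adjusted p = 0.000342).

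Of 9 tested NF-kB and activation-induced regulators 8 rose and none fell, where 6.91% of all tested genes rose. Their median was 1.51 against 0.02 for all genes, and without mixed barcodes 6 of 8 rose. The count filter can pass a gene on the level of 1 group alone, as for Hif1a, so this count is a description. Members under the filter with 20 or more UMIs were not called without it. These were Vps37b (log2 change 1.43), Bhlhe40 (0.67), Birc3 (0.65), Nfkb2 (0.45) and Relb (-0.74). Nfkbia, the inhibitor that NF-kB itself induces, rose from 8.53, 5.77 and 4.60 to 31.3, 19.3 and 30.5 (log2 change 2.22 ± 0.29, adjusted p = 0.00155). Hif1a, the hypoxia-inducible factor, rose from 0.541, 0.744 and 0.112 to 3.13, 4.06 and 3.44 (2.97 ± 0.43, 0.00255). Tnfaip3, a brake on NF-kB, rose by 1.66 ± 0.36 (0.0194), a call lost without control library 3. Cebpb had 1.68 ± 0.46 (0.0488), with 27.4% of its UMIs in the rhabdomyolysis cells assignable to free RNA, and was not called without mixed barcodes (1.21, 0.128) or when any 1 library other than rhabdomyolysis library 3 was left out. Nfkbia also rose in NK cells by 2.35 and in T cells by 2.68, and neither difference passed (adjusted p = 0.906 and 0.573).

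Immediate early and AP-1 genes rose in 3 of 15 tested members and fell in none, with a median of 0.64. Among all tested genes 6.91% rose and 5.08% fell. Without mixed barcodes 4 rose and 1 fell, with Zfp36l1, an RNA-binding protein that destabilises messages, at 1.32 (adjusted p = 0.0364) and Junb, a Jun-family factor, at -1.43 (0.0151). Egr1 rose from 0.781, 0 and 0.224 to 6.25, 3.45 and 4.59 UMIs per 10000 (log2 change 3.61 ± 0.60, adjusted p = 0.00538). Fosl2, a Fos-family factor, rose by 2.29 ± 0.40 (0.00681) and Jund by 1.16 ± 0.27 (0.0278). Fosl2 lost its call when any 1 of the control libraries or rhabdomyolysis library 2 was left out. Jund lost it without control library 1, without rhabdomyolysis library 1 and in cells with 3 or more markers. Fos (0.84, 0.259) and Jun (0.57, 0.321) were not called. Of the heat shock and dissociation genes none of 6 tested passed, with a median of -0.18, but Hspa1a and Hspa1b, near-identical heat shock protein genes under the filter, were called as lower without it. Hspa1a had 1, 52 and 33 UMIs against 0, 4 and 0 (adjusted p = 1.08e-05) and Hspa1b 0, 11 and 15 against 0 (0.00927, and 0.0584 without mixed barcodes), and control library 1 was as low as the rhabdomyolysis libraries. These p-values come from the fit without the filter, which also passed genes with UMIs in 1 library alone. None of 10 tested endoplasmic reticulum and secretion genes or 4 tested genes of STAT signalling passed. Under the filter, Socs3 of the STAT list had 0 control and 74 rhabdomyolysis UMIs, only 5 of them outside mixed barcodes. Dusp5 of the immediate early list had 12 and 41, with 34 of the latter outside mixed barcodes. No gene of either list under the filter was called as lower. Of 7 glucocorticoid-responsive genes 2 rose, beside 6.91% of all tested genes. They were Nfkbia and Tsc22d3, the leucine zipper GILZ. Tsc22d3 went from 0.541, 0.837 and 1.57 to 4.38, 3.05 and 4.59 (2.25 ± 0.39, 0.00596).

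**Figure D4:**
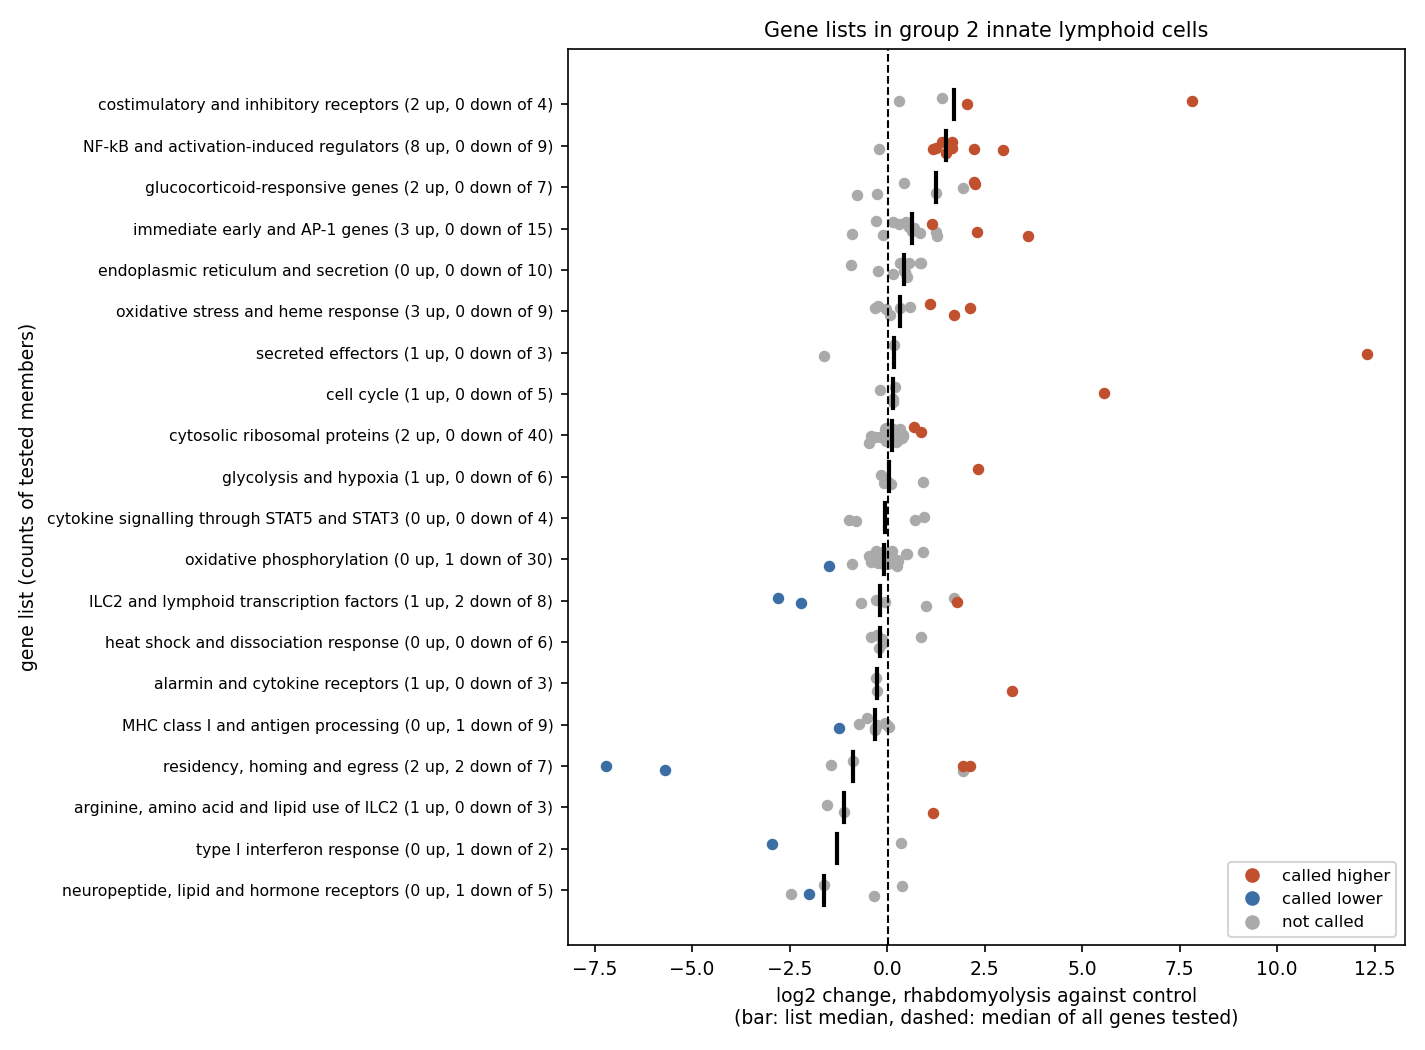
Log2 change of each tested gene in the 20 gene lists, with called genes coloured, the list median as a bar and the median of all 926 genes, 0.02, as a dashed line. The NF-kB list holds 8 called genes of 9 tested, all to the right of the line, where 6.91% of all tested genes were called as higher.

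Few of the tested metabolic genes were called. Of 3 tested genes of arginine, amino acid and lipid use 1 rose, Odc1, which makes polyamines from ornithine, by 1.17 ± 0.31 (adjusted p = 0.0427), a call lost when any 1 rhabdomyolysis library was left out. Without mixed barcodes Slc3a2, a subunit of amino acid transporters, was called as lower (-2.58, adjusted p = 0.0397). More list members under the filter were called in the edgeR fit without it. Slc7a8 had 56 control and 2 rhabdomyolysis UMIs and Dgat1 6 and 19, both also called without mixed barcodes (adjusted p = 0.00915 and 0.0447). Mt1 had 3 and 95, of which 90 were in rhabdomyolysis library 2. Alox5ap had 11 and 32, with 0 of the latter outside mixed barcodes. Gclc and Plin2 were not called. Ass1, which makes argininosuccinate on the way to arginine, rose from 0.481, 0.279 and 0 to 5, 6.50 and 5.04 (log2 change 4.30 ± 0.49, adjusted p = 0.000915). Arg1, the arginase that resting ILC2 express, was seen in 52 of 86 control and 4 of 25 rhabdomyolysis cells, with levels of 4.57, 2.51 and 1.01 against 1.88, 1.02 and 0, but the libraries overlapped and it was not called (-1.54 ± 0.83, 0.291). In C1q macrophages Arg1 was in 3 of 4432 barcodes of the control and 168 of 2028 of the rhabdomyolysis libraries.

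Of 6 glycolysis and hypoxia genes 1 rose. Ldha, the lactate dehydrogenase chain, had 6.25, 4.74 and 5.27 against 36.0, 17.7 and 21.3, with all rhabdomyolysis libraries higher (log2 change 2.34 ± 0.30, adjusted p = 0.00155). Gapdh (0.91, 0.0614), Pkm (0.11, 0.887) and Eno1 (-0.01, 1.0) were not called. The Ldha promoter is shown because the gene stood apart from its pathway, with ACGTG, the core of the hypoxia response element, in capitals on either strand.
Ldha, chr7:46845554-46845853, plus strand: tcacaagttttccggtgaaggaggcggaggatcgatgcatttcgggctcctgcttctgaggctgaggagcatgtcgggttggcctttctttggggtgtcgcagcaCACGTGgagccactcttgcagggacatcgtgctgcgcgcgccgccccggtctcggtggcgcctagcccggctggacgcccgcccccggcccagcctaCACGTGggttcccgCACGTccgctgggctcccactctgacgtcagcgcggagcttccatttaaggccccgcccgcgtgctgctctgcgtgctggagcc
ACGTG overlaps TGACG in the letters ACG. It was in 19.6% of all windows, 31.3% of those of tested genes, 16 of 51 higher genes (31.4%) and 8 of 34 lower genes (23.5%).

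AA467197, the mouse counterpart of NMES1, a small mitochondrial protein related to Ndufa4, had 0 UMIs in the control libraries and 14.4, 22.7 and 16.5 per 10000 in the rhabdomyolysis libraries. That is 0 against 230 UMIs, at least 223-fold higher (adjusted p = 0.000193). Ndufa4, a subunit of the terminal respiratory chain complex, was the 1 gene called of 30 tested for oxidative phosphorylation and fell from 4.99, 5.95 and 5.50 to 1.56, 1.22 and 2.52 (log2 change -1.48 ± 0.28, adjusted p = 0.0109), with no call in cells with 3 or more markers. AA467197 also rose in T cells (6.11, adjusted p = 5.58e-07) and NK cells (5.73, 0.000133), with a difference that passed against T cells only (7.67 ± 1.79, 0.0347) and not against NK cells (5.35 ± 2.91, 0.458). With 0 control UMIs the size of these fitted differences depends on the prior count.

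Of 9 tested genes of the oxidative stress and heme response 3 rose and none fell, with a median of 0.34, where 6.91% of all tested genes rose. Fth1, the ferritin heavy chain that stores iron, had 25.8, 29.8 and 29.0 against 156, 114 and 56.4 UMIs per 10000 (log2 change 2.12 ± 0.33, adjusted p = 0.00368), and 37.0% of the rhabdomyolysis UMIs could be free RNA. Ftl1, the light chain, had 1.10 ± 0.28 (0.0348), with 64.1% assignable to free RNA and no call without mixed barcodes (0.48, 0.354) or when any 1 library other than rhabdomyolysis library 3 was left out. Prdx6, a peroxiredoxin, rose from 4.15, 2.23 and 3.03 to 9.38, 8.53 and 10.8 (1.72 ± 0.26, 0.00346). Cdkn1a, an inhibitor of cyclin-dependent kinases, was the 1 called cell cycle gene of 5 and rose from 0.18, 0.093 and 0.224 to 13.1, 7.31 and 3.21 (5.56 ± 0.66, 0.00115). Mki67 was at 0 in all cells.

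The largest other falls were in genes of diverse function. Ly6a, the surface protein Sca-1 and an interferon-responsive gene, fell from 9.62, 10.1 and 11.3 to 0.625, 1.02 and 1.83 (log2 change -2.95 ± 0.30, adjusted p = 0.000725), in 78 of 86 and 6 of 25 cells. Inpp4b, an inositol lipid phosphatase, fell from 3.13, 3.16 and 3.03 to 0, 0.203 and 0, a ratio of 0.0257 with a counting interval of 0.000646 to 0.146. Lpcat2, a phospholipid acyltransferase, fell by 4.03 ± 0.56 on the log2 scale (0.00218), Slc6a13, a transporter of GABA, by 2.93 ± 0.44 (0.00308) and Lat, a signalling adaptor, by 2.86 ± 0.56 (0.0121). The call of Lat was lost when any 1 control library was left out. Trbc2, a T cell receptor constant gene, fell from 5.65, 3.44 and 4.71 to 0.625, 0 and 0.688 (-3.34 ± 0.57, 0.00596), with Trac at 0 in both groups, and it was not called in cells with 3 or more markers. Ighm, the heavy chain constant gene, fell by 3.80 ± 0.57 (0.00308). The B cell marker sum, which includes Ighm itself, was 2.51 to 3.005 against 0 to 0.313. In it Ms4a1 was at 0, and Cd79a was at 0 because the rule required it. H2-Q7 was the 1 called gene of 9 for MHC class I (-1.23 ± 0.26, 0.0171), and was not called without control library 1 or 2 or in cells with 3 or more markers, while H2-K1 was also called without mixed barcodes (-0.55, 0.0314). Rplp0 and Rplp1 were the 2 called of 40 ribosomal protein genes, with 0.86 ± 0.10 and 0.68 ± 0.08. Neither was called in the fit without the count filter, and without mixed barcodes 3 rose and 1 fell, with Rps29 at 0.39 and Rpl12 at -0.46.

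The changes of ILC2 were set against those of NK and T cells of the same libraries by an interaction test with the library as a block. The difference passed for 39 of 1869 genes against NK cells, 2.09%, and for 55 of 3917 against T cells, 1.4%. Without control library 1, 2 or 3 these counts were 7, 13 and 19 for NK cells and 19, 34 and 30 for T cells, without rhabdomyolysis library 3 they were 70 and 101, and without rhabdomyolysis library 2 the count for T cells was 94. Of the 111 genes called in ILC2, 21 differed from NK cells, 29 from T cells and 11 from both, namely Ass1, Crem, Ctla2a, Ctla2b, Fgl2, Ifngr1, Ldha, Metrnl, Mycbp2, Tent5a and Tnfrsf18. Fgl2 rose in ILC2 and fell in T cells by 1.16, and the differences were 3.92 ± 0.39 from NK cells (adjusted p = 5.73e-06) and 3.99 ± 0.37 from T cells (6.67e-07). Tent5a, which lengthens messenger RNA tails, rose in ILC2 by 3.08 ± 0.42 and differed by 3.79 ± 0.52 and 3.69 ± 0.47. Mycbp2, a ubiquitin ligase, fell in ILC2 by 3.18 ± 0.62, a call lost without control library 2, and differed by -3.00 ± 0.74 and -2.89 ± 0.66. Of the genes called in ILC2, 17 of 93 tested in NK cells and 60 of 110 tested in T cells were called in the same direction there. In the opposite direction 1 and 2 were called. Of all genes tested there, 3.1% of 3676 were called in NK cells and 11% of 8686 in T cells. These wider sets include genes too low to be tested in ILC2, so the shares are not over like genes.

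**Figure D5:**
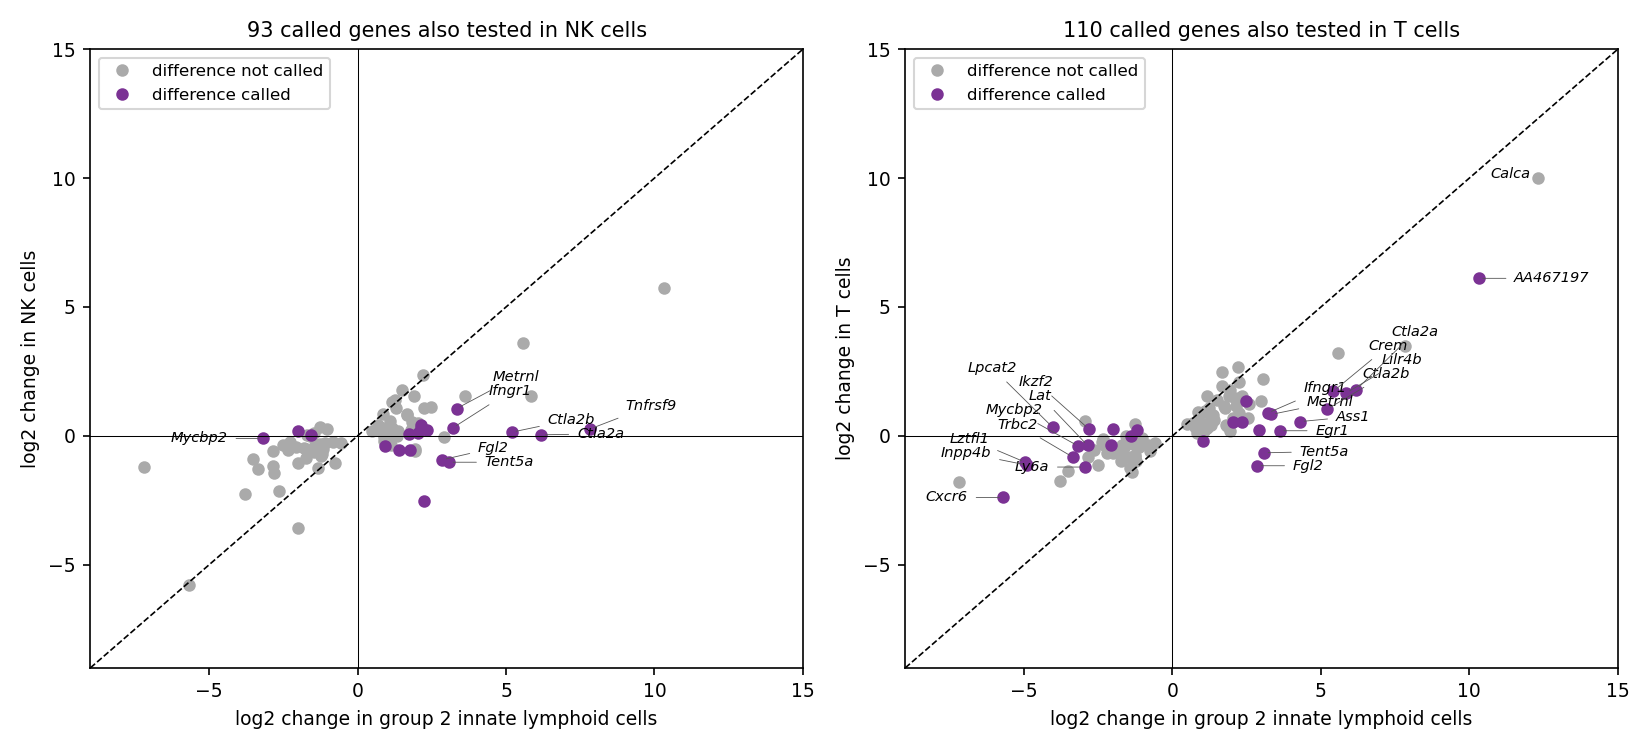
Log2 change of genes called in ILC2 (horizontal) against their change in NK cells (left, 93 genes) and T cells (right, 110 genes), with genes whose difference passed in purple and equal change as a dashed line. Ctla2a lies right of the line in both panels, and Calca lies at 12.30 for ILC2 and 10.00 for T cells.

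The share of cells with a UMI was compared for the 60 named genes, of which at least 24 were chosen for groups that do not overlap in summed level, so their counts are a description. In cells thinned to 1000 UMIs, 37 of 60 genes had no overlap between groups in this share, 21 with higher and 16 with lower shares after rhabdomyolysis, and without thinning 45 did. Of all 926 tested genes, 295 or 31.9% had no overlap in summed level. The share of cells was not compared for all of them. Ifngr1 was seen in 3 of 85 control and 16 of 25 rhabdomyolysis cells after thinning, and in 25 of 86 and 24 of 25 before it. No gene could pass, since the smallest exact permutation p for 3 against 3 libraries is 0.1, which became 0.162 over 60 genes.

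The matrices also held antibody tags, among them those for CD4, CD8a, F4/80, CD3 and P2X7R. The two-sided exact permutation test of 3 against 3 libraries cannot go below 0.1, so no tag could pass, and their adjusted p ran from 0.6 to 0.9. The macrophage tag F4/80 gave 12 to 17.5 counts per 10000 gene UMIs in control ILC2 and 3.44 to 23.8 in rhabdomyolysis ILC2, with overlap, where C1q macrophages gave 68.6 to 252. The tag for P2X7R, an ATP-gated channel, averaged 17.5 ± 5.21 in control and 11.1 ± 9.19 in rhabdomyolysis ILC2 (SD, n = 3).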

How the data were processed

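The deposited values are raw UMI counts of each gene in each barcode, with empty droplets still included, made with Cell Ranger 4 per the file headers and on the genome build mm10 per the submitters' processing notes. The 6 matrices also hold 6 antibody tags. No doublet caller was run, and mixed barcodes were left out in an alternative instead. The members, gene lists, markers and tests were chosen with earlier results of these data known.

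Counts were summed over the selected cells of each library and tested with edgeR 4.0.16 (quasi-likelihood, TMM, filterByExpr, Benjamini-Hochberg, adjusted p under 0.05) in R 4.3.3, with DESeq2 1.42.0 as an alternative. Standard errors are the log2 change divided by the square root of F. Differences between classes are interaction terms with the library as a block, in a fit of its own, so they need not equal the difference of 2 separate changes. T cells were barcodes with at least 2 Cd3 UMIs, NK cells (which may include ILC1) others with Ncr1 that were not B cells, and C1q macrophages the remaining ones with at least 3 C1q UMIs. For gene tests, interaction tests and tags, T cells also had no UMI of Cd79a or Ncr1. NK cells there had no UMI of a Cd3 gene or of Cd79a. Levels are UMIs per 10000 gene UMIs of the summed cells. Free RNA was profiled in barcodes with at most 100 UMIs, and its share of the members was bounded from macrophage, B cell and tubule markers at 1.69% to 22.3% per library. Intervals cover counting error only, at 95%. Exact permutation tests used scipy 1.17.1.

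Named genes were called, had an average log2 CPM of at least 6, no overlap between groups and under 20% of counts assigned to free RNA, the 12 largest in each direction. To these came up to 4 called genes of each list with an average log2 CPM of at least 5, the 6 most abundant of 4 lists, the 5 rule markers and 6 genes of the interaction tests. Other genes were named after their values were seen. On simulated counts for 918 genes of this comparison the test recovered 60% of changes of 1 on the log2 scale, 89.8% of those of 2 and 100% of larger ones, with 9 false calls. The simulated counts held no mixed barcodes and no single cells with extreme counts, so these rates need not hold for the data. Medians of lists are the same with Tnfrsf9 and Ccr2 set at their bounds. Promoters come from RefSeq, GRCm38.p6. Alternatives were the number of markers, a gate against other cell types, depth, Malat1, denominator, scaling, count filter, free RNA, tool, a replicate block and leaving out each library.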

Additional observations from a re-analysis of the deposited data

Results flagged for a closer look

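For these genes the change in ILC2 differed from the change in NK or T cells of the same libraries by the interaction test of edgeR at an adjusted p under 0.05. Values are differences of log2 changes, ILC2 minus the other class, and where a group held 0 UMIs their size depends on the prior count.

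Higher in ILC2 than in both classes were Ctla2a (6.12 against NK cells, 4.38 against T cells), Ctla2b (5.05 and 4.15), Ass1 (9.22 and 3.71), Crem (4.64 and 3.85), Fgl2 (3.92 and 3.99), Tent5a (3.79 and 3.69), Ifngr1 (2.96 and 2.29), Metrnl (2.57 and 2.66), Ldha (2.17 and 1.75) and Tnfrsf18 (2.11 and 1.55). Lower against both was Mycbp2 (-3.00 and -2.89).

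Against NK cells alone the difference passed for Tnfrsf9 (8.65), Icos (3.98), Lmo4 (2.15), Rgs1 (2.10), Prdx6 (1.65) and Fth1 (1.61). Icos was not called in ILC2 itself.

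Against T cells alone the difference was positive for AA467197 (7.67), Lilr4b (4.75) and Egr1 (3.37). It was negative for Lpcat2 (-4.56), Inpp4b (-4.00), Lztfl1 (-3.97), Cxcr6 (-3.46), Ikzf2 (-3.11), Lat (-2.57), Trbc2 (-2.56), Il7r (-2.52), Ramp1 (-2.24), Ltb (-2.17) and Ly6a (-1.79). Il7r and Ltb were not called in ILC2 itself.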

How the results depend on the processing

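The fall in the share of ILC2 (-0.68) turned with 3 or more markers (0.22) and among lymphoid classes (0.59), and lost its call with the strict gate against other cell types (-0.27), after thinning (-2.12) and with the replicate block (-0.66, adjusted p = 0.0532). Leaving out 1 library gave -0.83 to -0.56. Genes called numbered 33 with 3 or more markers, 70 with the strict gate, 306 without the count filter and 59 to 197 with 1 library left out. Differences from NK cells numbered 3 with 3 or more markers, 76 without mixed barcodes and 7 to 70 with 1 library left out. Differences from T cells numbered 33, 104 and 19 to 101, and 125 without the count filter. With the replicate block the 3 counts were 66, 63 and 117. Same-numbered libraries did not pair, with correlations of 0.034, -0.117 and 0.027, and none correlated best with its own number. DESeq2 called 113 genes and subtraction of free RNA left 114.

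Gata3 turned from 0.10 to -0.21 with all 5 markers in the gate, and the F4/80 tag from -0.08 to 0.083 per cell. Of 677 values of the 49 named called genes under alternatives, 611 kept the call, 66 lost it and 0 turned. Uncalled genes that turned were Klf6 (0.49 with 3 or more markers, 0.066 without mixed barcodes, -0.48 to 0.42 with 1 library left out), Klf2 (-0.49, strict gate), Ets1 (-1.04 to 0.034 with 1 library left out), Il7r (0.031 with 3 or more markers, 0.051 with the strict gate, -0.63 to 0.023 with 1 left out), Mif (-0.024 with library totals, -0.11 without the filter, -0.25 to 0.55 with 1 left out) and Cd69 (-0.22 to 0.78 with 1 left out). The cause was not tested. With 25 rhabdomyolysis cells and 124821 UMIs, many low genes did not reach the count filter.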
